A study of Mus musculus with 30 samples.

Results

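The comparison described here is that of mouse colonoids given TGFB1 together with BMP2 against the same colonoids given vehicle, measured by mRNA sequencing. It was defined by the samples' labels and not by any measured value, and it holds 6 of the 30 samples of the series. Colonoids are epithelial organoids grown from colon. The 3 colonoid lines, named L42, L43 and L46, each received both treatments: TGFB1 at 3 ng/mL with BMP2 at 10 ng/mL, or the vehicle. The labels state neither the length of treatment nor the genotype or strain of the colonoids, and the 2 ligands were always given together, so their effects cannot be told apart. Of the other samples, 6 colonoid libraries of the same lines had TNF at 100 ng/mL with or without both ligands, 6 were Smad4+ colonocytes labelled IMCfl/fl with or without TGFB1 and BMP2 at doses not stated in the labels, and 6 were colon epithelium of C57BL/6J mice, either Smad4+ controls or the knockout labelled Smad4ΔLrig1. The remaining 6, colonocytes given TNF with or without the ligands, were not used here. The series concerns Smad4 signalling in the colon and inflammation. In the sample descriptions, L42 and L43 carry one prefix and L46 another whose meaning is not stated, so the prefix and the line cannot be told apart.

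TGFB and BMP ligands bind receptor kinases that phosphorylate Smad proteins, Smad2 and Smad3 for TGFB and activin, Smad1 and Smad5 for BMP, and these enter the nucleus with Smad4. Among the first genes they switch on are inhibitors of the pathway itself, such as Smad7 for TGFB and Smad6 for BMP. In the colon, BMP signals are strongest near the crypt top, where cells differentiate, and TGFB is known to halt epithelial proliferation and to raise matrix and adhesion genes during wound repair.

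Values are CPM (counts per 1 M reads, scaled by the authors to an effective library size) and are given in the order L42, L43 and L46. Log2 changes are treated minus vehicle on log2(CPM + 1), given ± the SE of the limma fit. P-values are from limma, adjusted by Benjamini-Hochberg over all genes tested. In that SE, the spread of a gene is drawn towards that of genes at a similar level. It can therefore be smaller than the spread among the 3 lines where L46 departs from the others. "Rose" and "fell" are used only below an adjusted p of 0.05. Each library held 45.5 to 60.0 M reads in the listed genes. The treated libraries had more of their reads in a few genes: the 20 most abundant genes held 8.19 to 9.19% of reads against 6.29 to 6.93% with vehicle. All 12 epithelial markers checked were above the low-value filter, for example Epcam at 1445, 1487 and 1437 CPM with vehicle and 4084, 4134 and 2574 CPM with the ligands. Epcam, an epithelial adhesion molecule, rose with the ligands, although not when 1 line was left out: Epcam (adjusted p 0.0958 without L42). Of the 12 markers 8 rose and 1 fell. Without L42, 0 rose and 1 fell. None of 7 endothelial markers was listed, and 3 of 16 leukocyte markers were tested, with a sum of 8.35 to 12.2 CPM with vehicle and 6.04 to 12.9 CPM with the ligands. Of 12 stromal markers 3 were tested, with a sum of 4.43 to 5.84 CPM with vehicle and 4.83 to 9.48 CPM with the ligands.

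Of 11633 genes tested, 7223 (62.1%) changed, 3540 (30.4%) upwards and 3683 (31.7%) downwards. With total reads as the only scaling, 7533 changed (64.7%), and the split was 2219 (19.1%) up and 5314 (45.6%) down, because that scaling moved the median log2 change of all genes from -0.02 to -0.28. Of the changed genes, 1116 (9.59% of those tested) were at least 2-fold higher and 1336 (11.5%) at least 2-fold lower. The number of changed genes was 2584 without L42, 3905 without L43 and 8355 without L46. The groups did not overlap for 3892 genes (33.5%) that were higher and 4017 (34.5%) that were lower with the ligands. Counts of changed genes in the lists that follow are to be read against these shares. Those with total reads as scaling are to be read against 19.1% and 45.6%. Those without a line are to be read against the number of changed genes without that line. The lists were chosen with earlier results of these data known, so a list above these shares is a description and no test.

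The negative regulators of the pathway rose almost throughout. Of the 11 feedback genes tested, 10 rose and 1 fell, with a median log2 change of 1.81. Smad7, the inhibitory Smad that blocks TGFB receptors, stood at 12.2, 10.6 and 16.3 CPM with vehicle and 185, 171 and 97.5 CPM with the ligands, 11.6-fold higher by the means (log2 change 3.4 ± 0.30, adjusted p = 0.00535). Every treated library lay above every vehicle library, and the treated level was lowest in L46. Pmepa1, a membrane protein that sequesters receptor-activated Smads (mm10 chr2:173224458-173276533, minus strand, protein-coding), stood at 92.4, 77.6 and 115 CPM with vehicle and 906, 999 and 655 CPM with the ligands (log2 change 3.15 ± 0.24, adjusted p = 0.00477). Its relative Ldlrad4 stood at 5.64, 6.97 and 6.89 CPM with vehicle and 50.5, 62.9 and 36.3 CPM with the ligands, and Skil, a Smad corepressor, at 48.4, 52.0 and 56.5 CPM with vehicle and 344, 392 and 176 CPM with the ligands. For both genes the groups did not overlap, and again L46 had the lowest treated value. Smurf1, a ubiquitin ligase for Smads and receptors, stood at 58.4, 49.3 and 64.8 CPM with vehicle and 308, 330 and 203 CPM with the ligands (log2 change 2.24 ± 0.22), while its relative Smurf2 changed by 0.81. Smad6, the inhibitory Smad of the BMP branch, stood at 1.37, 1.39 and 1.38 CPM with vehicle and 9.77, 13.1 and 2.80 CPM with the ligands; it rose steeply in L42 and L43 and little in L46. Bambi, a decoy receptor, rose by 1.20, the corepressor Ski by 0.77 and Tgif1, another repressor, by 0.94. Tgif2 was the member that fell, from 10.2, 8.75 and 7.99 to 2.80, 2.68 and 5.44 CPM. Calls that did not hold without 1 line were Smad6 (adjusted p 0.0637 without L42 and 0.0584 without L43), Tgif2 (adjusted p 0.0792 without L42 and 0.0678 without L43) and Smurf2 (adjusted p 0.0516 without L42).

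The promoters of Smurf1, Smad6 and Tgif1 are printed because these are the feedback or BMP target genes with the largest rises that have an entry in the RefSeq promoter table used here. Smad7, Pmepa1, Ldlrad4, Skil, Id1, Bambi and Tbx3 have no entry. Each is 300 bases of GRCm38.p6 on the minus strand, from 250 bases before the start to 50 after it, at chr5:144965781-144966080 for Smurf1, chr9:64022010-64022309 for Smad6 and chr17:70853483-70853782 for Tgif1, where the most upstream of 5 starts was taken. Capitals mark the letters CAGAC, or GTCTG on the other strand, which hold the short Smad-binding box, and the longer palindrome GTCTAGAC. GGCGCC, a GC-rich Smad motif, was also searched on both strands and occurred in none of the 3 windows.
Smurf1: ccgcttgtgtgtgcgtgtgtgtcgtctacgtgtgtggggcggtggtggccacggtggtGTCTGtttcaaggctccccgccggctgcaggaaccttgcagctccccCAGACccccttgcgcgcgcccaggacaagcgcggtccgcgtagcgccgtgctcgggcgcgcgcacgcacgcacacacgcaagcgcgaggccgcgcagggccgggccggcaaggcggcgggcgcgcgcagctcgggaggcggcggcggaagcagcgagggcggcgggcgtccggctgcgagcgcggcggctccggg
Smad6: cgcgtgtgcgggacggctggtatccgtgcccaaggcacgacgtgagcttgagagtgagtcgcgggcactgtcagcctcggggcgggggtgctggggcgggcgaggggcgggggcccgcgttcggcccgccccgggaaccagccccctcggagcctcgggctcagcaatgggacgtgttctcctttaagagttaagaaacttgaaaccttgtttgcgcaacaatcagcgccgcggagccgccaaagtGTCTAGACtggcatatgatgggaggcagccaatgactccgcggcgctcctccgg
Tgif1: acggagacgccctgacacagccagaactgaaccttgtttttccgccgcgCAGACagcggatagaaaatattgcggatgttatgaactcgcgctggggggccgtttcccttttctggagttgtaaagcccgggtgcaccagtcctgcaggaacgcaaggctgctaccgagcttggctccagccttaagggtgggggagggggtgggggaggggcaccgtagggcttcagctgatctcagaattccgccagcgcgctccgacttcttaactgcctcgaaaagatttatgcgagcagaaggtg
The Smurf1 window held 2 CAGAC matches, the Smad6 window 1 GTCTAGAC and no CAGAC, and the Tgif1 window 1 CAGAC. Of the 8884 tested genes with a promoter in the table, 47.5% held CAGAC, 22.0% GGCGCC and 0.214% GTCTAGAC. Among genes that rose the shares were 48.3%, 22.7% and 0.186%, and among genes that fell 48.2%, 21.8% and 0.248%. These are matches of letters and no test was made.

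Ligand genes were mostly low. Of 22 in the list 7 were tested, of which 5 rose and 1 fell; 3 rose and 1 fell without L42, 3 rose and 1 fell without L43, 5 rose and 2 fell without L46, and 3 rose and 2 fell with total reads as scaling. Inhba, which encodes the activin A subunit, stood at 0.703, 0.378 and 0.825 CPM with vehicle and 10.9, 2.80 and 2.78 CPM with the ligands (log2 change 1.77 ± 0.37, adjusted p = 0.0139). Bmp8b stood at 46, 31.6 and 56.7 CPM with vehicle and 97.3, 93.6 and 116 CPM with the ligands, and Tgfb1, the gene for TGFB1 itself, at 20.8, 17.6 and 25.7 CPM with vehicle and 35.8, 33.8 and 40.1 CPM with the ligands. All 3 were higher in each treated library than in any vehicle library. Bmp3, an atypical BMP that opposes other BMPs, fell from 15.3, 15.7 and 11 to 2.95, 4.41 and 4.20 CPM. Bmp2 itself went from 30.8, 43.5 and 41.9 to 48.5, 66.3 and 45.6 CPM; the groups were apart by little, and its call did not hold in several settings: Bmp2 (adjusted p 0.0804 with no replicate block, 0.206 with total reads as scaling, 0.221 without L42 and 0.154 without L43). Gdf15, a distant member of the family, was not called (adjusted p = 0.0685) and stood at 23.2, 16.5 and 58.6 CPM with vehicle and 16.5, 8.58 and 55.8 CPM with the ligands; it was called lower by DESeq2 (adjusted p = 0.0459), with total reads as scaling (0.0282) and without L46 (0.00354).

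Among 9 receptor genes tested 4 rose and 1 fell; 4 rose and 2 fell with total reads as scaling. Acvr1, a type I receptor for BMP and activin, stood at 26.6, 23.4 and 28.5 CPM with vehicle and 149, 154 and 92.7 CPM with the ligands (log2 change 2.26 ± 0.21, adjusted p = 0.00539). The type II BMP receptor Bmpr2 stood at 64.5, 60.5 and 65.4 CPM with vehicle and 186, 222 and 136 CPM with the ligands, and the type II TGFB receptor Tgfbr2 at 312, 225 and 295 CPM with vehicle and 489, 480 and 480 CPM with the ligands. None of these 3 overlapped between the groups. Acvr2a, a type II activin receptor, rose by 0.78, a call that did not hold without L42: Acvr2a (adjusted p 0.0519 without L42). Rgmb, a BMP co-receptor, fell from 35.8, 35.4 and 27.2 to 12.9, 11.3 and 13.2 CPM. The type I TGFB receptor Tgfbr1 stood at 50.7, 44.9 and 36.1 CPM with vehicle and 65.5, 81.7 and 39.8 CPM with the ligands and was not called (adjusted p = 0.0579), although it was by DESeq2 (adjusted p = 0.0323) and without L46 (adjusted p = 0.00466).

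Of the Smads that carry the signal, Smad3 stood at 71.5, 66.9 and 68.6 CPM with vehicle and 165, 200 and 149 CPM with the ligands (log2 change 1.29 ± 0.12, adjusted p = 0.00539), without overlap. Smad2, its partner in the TGFB branch, went from 57.2, 63.9 and 58.0 to 91.5, 101 and 74.1 CPM; the call did not hold without 1 line: Smad2 (adjusted p 0.0905 without L42 and 0.0525 without L43). The BMP-branch Smads Smad1 (log2 change -0.24 ± 0.10, adjusted p = 0.0883) and Smad5 (-0.21 ± 0.08, adjusted p = 0.0792) were not called. With total reads as scaling both were called lower (adjusted p = 0.0154 and 0.0107), and Smad1 was also without L46 (0.0499). Smad4, the shared partner, stood at 118, 130 and 131 CPM with vehicle and 152, 170 and 134 CPM with the ligands (log2 change 0.26 ± 0.10, adjusted p = 0.0819), and its change was -0.02 with total reads as scaling; it was called without L46 (adjusted p = 0.00664). Of 5 secreted antagonists tested 3 rose. Follistatin (Fst), which binds activin, stood at 0.722, 0.342 and 0.241 CPM with vehicle and 14.7, 4.43 and 2.09 CPM with the ligands, highest in treated L42. Nbl1, a BMP antagonist, stood at 14.5, 13.1 and 17.0 CPM with vehicle and 44.3, 45.6 and 37.7 CPM with the ligands, with no overlap.

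**Figure D1:**
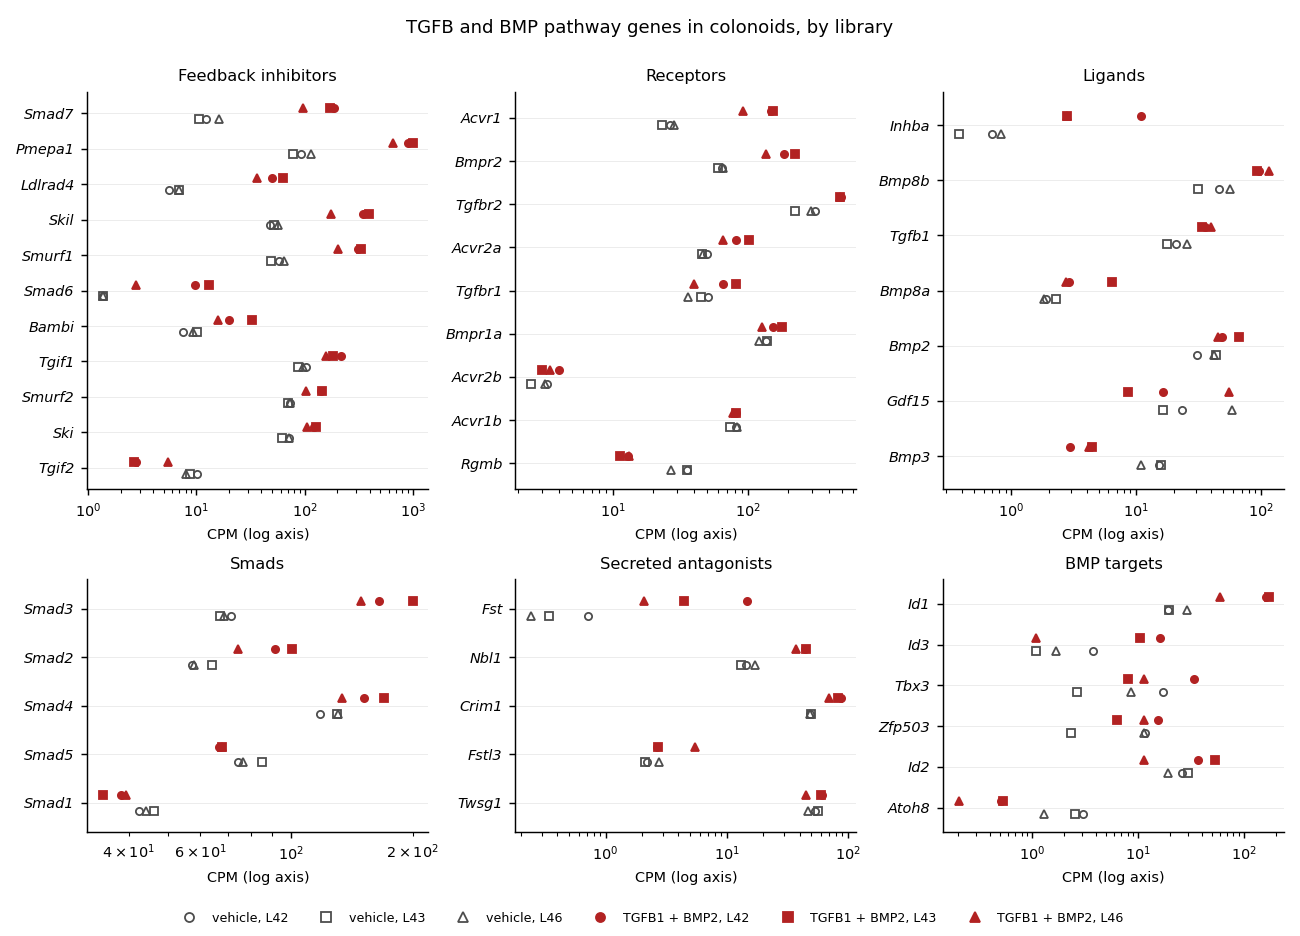
CPM on a log axis for genes of the TGFB and BMP pathway in the 6 colonoid libraries, in panels by role; open grey symbols are vehicle, filled red symbols are TGFB1 with BMP2, and circles, squares and triangles are L42, L43 and L46. The feedback genes Smad7, Pmepa1 and Ldlrad4 are separated widely in all lines, while Id2 and Id3 overlap, with treated L46 low.

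BMP targets split by line. Id1, the classic BMP response gene that blocks differentiation factors (chr2:152736251-152737410, plus strand, protein-coding), stood at 19.1, 19.9 and 29.3 CPM with vehicle and 164, 173 and 59.3 CPM with the ligands (log2 change 2.36 ± 0.45, adjusted p = 0.0112), and its changes by line were 3.03, 3.05 and 0.99. Id3 stood at 3.81, 1.10 and 1.70 CPM with vehicle and 16.3, 10.5 and 1.09 CPM with the ligands, and Id2 at 26.3, 29.8 and 19.5 CPM with vehicle and 36.9, 53.9 and 11.4 CPM with the ligands; both were higher with the ligands in L42 and L43 and lower in L46, and neither was called (adjusted p = 0.101 and 0.612), although DESeq2 called Id3 (adjusted p = 0.0217). Without L46, Id3 (adjusted p = 5.61e-05) and Id2 (0.00215) were called higher, and without L43 the Id2 change turned to -0.13, as it did to -0.07 with total reads as scaling. Atoh8, another BMP-responsive gene, fell from 3.03, 2.56 and 1.29 to 0.516, 0.537 and 0.204 CPM. Of the 6 targets tested 2 rose and 1 fell; 1 rose and 1 fell without L42, 1 rose and 1 fell without L43, and 5 rose and 1 fell without L46.

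Most TGFB targets rose. Of 22 tested 19 rose and 3 fell, with a median log2 change of 1.55. Fn1, the matrix protein fibronectin (chr1:71585520-71653200, minus strand, protein-coding), stood at 68.5, 26.9 and 19.0 CPM with vehicle and 1300, 368 and 216 CPM with the ligands (log2 change 3.80 ± 0.17, adjusted p = 0.00463). The groups did not overlap, and Fn1 was highest in L42 under either treatment. Pdgfb, a growth factor for mesenchymal cells, stood at 10.9, 10.7 and 8.97 CPM with vehicle and 112, 105 and 63.7 CPM with the ligands, and Ctgf, a matricellular protein, at 151, 169 and 271 CPM with vehicle and 852, 851 and 991 CPM with the ligands. Itgb6, whose integrin activates latent TGFB, stood at 34.0, 29.5 and 28.9 CPM with vehicle and 163, 188 and 103 CPM with the ligands, and Tgm2, a crosslinking enzyme, at 79.1, 34.3 and 46.8 CPM with vehicle and 303, 198 and 158 CPM with the ligands. In all 4 genes each treated library exceeded every vehicle library. The Notch ligand Jag1 rose by 1.77 and the TGFB-induced factor Klf10 by 1.76. Against the list's name, Hmga2, a chromatin protein, fell from 78.4, 81.5 and 72.0 to 28.0, 22.2 and 37.2 CPM, Pthlh fell from 3.73, 4.97 and 3.68 to 0.491, 0.211 and 1.09 CPM, and Tgfbi fell from 3.69, 1.58 and 1.99 to 0.516, 0.153 and 0.222 CPM.

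The 15 largest rises were led by the enzymes Arg1, Alox12 and Acsbg1. Arg1, the arginine-degrading enzyme arginase (chr10:24915221-24927484, minus strand, protein-coding), stood at 0.878, 1.57 and 0.842 CPM with vehicle and 167, 179 and 33.4 CPM with the ligands (log2 change 5.61 ± 0.47, adjusted p = 0.00516). The 12-lipoxygenase Alox12 stood at 1.09, 2.18 and 2.30 CPM with vehicle and 84.9, 269 and 76.5 CPM with the ligands, and the acyl-CoA synthetase Acsbg1 at 5.48, 5.92 and 10.1 CPM with vehicle and 361, 407 and 220 CPM with the ligands. In these 3 genes L46 had the lowest treated value, and vehicle levels were low in every line. Next were the homeobox factor Onecut2 (log2 change 5.00), the secreted protein Angptl2 (4.97), the steroid 21-hydroxylase Cyp21a1 (4.77), the junctional adhesion molecule Jam2 (4.42), Dok2 (4.35) and Gpr123 (4.20). Aldh1a3, which makes retinoic acid, stood at 24.4, 15.7 and 18.2 CPM with vehicle and 471, 432 and 224 CPM with the ligands, and Timp3, a metalloproteinase inhibitor, at 18.8, 36.9 and 23 CPM with vehicle and 416, 932 and 246 CPM with the ligands. Nat8l (4.10), Dhrs9 (4.08), Padi2, a peptidylarginine deiminase (4.06), and the hyaluronan synthase Has2 (4.05) completed the 15 largest.

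The 15 largest falls were led by Pigr, Agr2 and Aqp1. Pigr, which carries IgA across the epithelium (chr1:130826684-130852249, plus strand, protein-coding), stood at 1514, 1919 and 1082 CPM with vehicle and 24.1, 35.4 and 107 CPM with the ligands, 27.0-fold lower by the means (log2 change -4.99 ± 0.55, adjusted p = 0.00590). Agr2, a disulfide isomerase needed for mucin folding, stood at 427, 404 and 217 CPM with vehicle and 8.20, 5.5 and 21.3 CPM with the ligands, and the water channel Aqp1 at 61.6, 45.7 and 24.4 CPM with vehicle and 0.442, 0.249 and 1.41 CPM with the ligands. Groups did not overlap in any of the 3, and treated L46 kept the highest level. Myb, a transcription factor of proliferating progenitors, fell by 23.8-fold of the means, and Nox1, the colonic NADPH oxidase, went from 173, 324 and 151 to 5.55, 8.47 and 14.5 CPM. The pore-forming claudins Cldn15 (log2 change -4.23) and Cldn2 (-4.11) fell, as did the oxidase Hao2 (-4.38), Ifitm3 (-4.34), the alcohol dehydrogenase Adh1 (-4.07), Slc12a8 (-3.96), Txndc16 (-3.61) and 2810417H13Rik. Lgr5 and Atoh1, also among these 15, are described with their lineages.

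**Figure D2:**
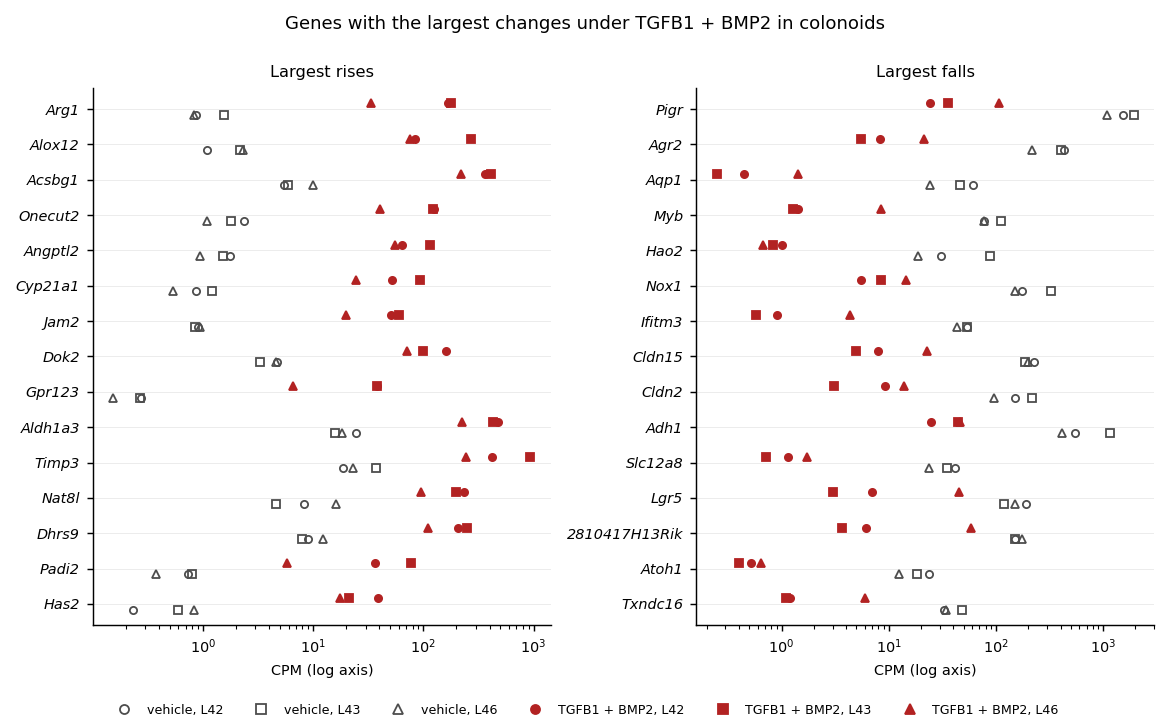
CPM on a log axis in the 6 colonoid libraries for the 15 genes with the largest rises and the 15 with the largest falls; open grey symbols are vehicle, filled red symbols are TGFB1 with BMP2, and the symbol shape is the line. Arg1 lies at 0.842 to 1.57 CPM with vehicle and at 33.4 to 179 CPM with the ligands, and the triangle of treated L46 is often the one nearest the vehicle values.

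Proliferation genes fell together. All 28 cell cycle genes tested fell, with a median log2 change of -2.94, and their summed level was 4041 to 5002 CPM with vehicle and 562 to 2291 CPM with the ligands. The list's median by line was -3.58, -4.19 and -1.13, so the fall was shallowest in L46; without L42, 16 of the 28 were still called. Mki67, the antigen of cycling cells (chr7:135689784-135716361, minus strand, protein-coding), stood at 479, 460 and 687 CPM with vehicle and 20.8, 19.1 and 302 CPM with the ligands (log2 change -3.39 ± 0.72, adjusted p = 0.0146). Ccna2, the cyclin of S and G2 phase, stood at 208, 247 and 260 CPM with vehicle and 9.97, 6.94 and 103 CPM with the ligands, and the replicative helicase subunit Mcm5 at 146, 167 and 167 CPM with vehicle and 6.90, 7.95 and 54.0 CPM with the ligands. All treated values lay under all vehicle values, with treated L46 in between. Pcna, the replication clamp, fell least of the list, from 303, 356 and 335 to 264, 237 and 270 CPM. Calls of named genes that did not hold without 1 line were Mki67 (adjusted p 0.0509 without L42 and 0.0532 without L43) and Pcna (adjusted p 0.142 without L42 and 0.179 without L43). In bulk libraries, fewer cycling cells and less of these RNAs per cell cannot be told apart, which holds for each cell type named here.

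Cytostatic genes, which brake or drive the cycle, moved both ways. Of the 12 tested 4 rose (33.3%) and 3 fell (25.0%), against 30.4% and 31.7% of all genes, with a median log2 change of 0.04. Without L42, 3 rose and 1 fell. With total reads as scaling 3 rose and 5 fell, where 19.1% of all genes rose and 45.6% fell. Cdkn1a, the p21 inhibitor, stood at 172, 182 and 226 CPM with vehicle and 667, 1115 and 457 CPM with the ligands (log2 change 1.86 ± 0.31, adjusted p = 0.00893), and Cdkn2b, the p15 inhibitor known as a TGFB target, at 57.5, 46.8 and 54.7 CPM with vehicle and 191, 160 and 134 CPM with the ligands (1.58 ± 0.12, adjusted p = 0.00477). Neither overlapped between the groups. E2f1, the activator of S-phase genes, went from 25.7, 26.2 and 26.8 to 1.94, 1.49 and 11.5 CPM and Ccnd2, a D-type cyclin, from 491, 580 and 457 to 89.3, 101 and 331 CPM. Cdk4, the kinase that D-type cyclins activate, went from 258, 271 and 252 to 122, 95.4 and 182 CPM. The calls of Ccnd2 (adjusted p 0.0792 without L42 and 0.0791 without L43) and Cdk4 (adjusted p 0.0608 without L42) did not hold in these settings.

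The receptor for epidermal growth factor and several of its ligands rose. Of 12 tested 8 rose and 2 fell (median log2 change 0.94). The receptor Egfr stood at 57.1, 49.7 and 59.0 CPM with vehicle and 448, 625 and 261 CPM with the ligands (log2 change 2.90 ± 0.29, adjusted p = 0.00575). The ligand amphiregulin, Areg, stood at 135, 96.6 and 155 CPM with vehicle and 474, 429 and 315 CPM with the ligands, and the feedback inhibitor Errfi1 at 95.4, 77.7 and 96.2 CPM with vehicle and 389, 402 and 294 CPM with the ligands. Lrig1, a stem cell protein that restrains Egfr, went the other way, from 329, 343 and 327 to 37.3, 30.4 and 95.0 CPM. None of the 4 overlapped between the groups.

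Stem cell and Wnt genes moved both ways. Lgr5, the R-spondin receptor that marks these cells (chr10:115450311-115587780, minus strand, protein-coding), stood at 191, 119 and 152 CPM with vehicle and 6.97, 3.05 and 45.1 CPM with the ligands (log2 change -3.74 ± 0.66, adjusted p = 0.00977). Ascl2, the transcription factor of the same cells, stood at 36.6, 34.1 and 43.2 CPM with vehicle and 2.06, 2.18 and 11.3 CPM with the ligands, and Smoc2 at 128, 142 and 75.0 CPM with vehicle and 18.7, 30.9 and 7.48 CPM with the ligands. All treated values were under all vehicle values; treated L46 was the highest for Lgr5 and Ascl2 and the lowest for Smoc2. Prom1, a membrane protein used as a progenitor marker, rose from 656, 458 and 610 to 1060, 893 and 969 CPM, and the ion transporter Slc12a2 fell from 1183, 1115 and 1066 to 530, 520 and 825 CPM. Calls that did not hold without 1 line were Prom1 (adjusted p 0.0687 without L42) and Slc12a2 (adjusted p 0.128 without L42 and 0.0734 without L43). Of the 19 genes tested 8 rose (42.1%) and 8 fell (42.1%), against 30.4% and 31.7% of all genes. Without L42, 4 rose and 6 fell.

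Genes known from regenerating and fetal-like intestinal epithelium rose. Of 16 tested 12 rose and 1 fell (median log2 change 1.48); 12 rose and 0 fell without L43, 12 rose and 3 fell without L46, and 12 rose and 2 fell with total reads as scaling. Clu, the chaperone clusterin that marks revival stem cells (chr14:65968483-65981547, plus strand, protein-coding), stood at 498, 344 and 428 CPM with vehicle and 5899, 5531 and 2807 CPM with the ligands (log2 change 3.43 ± 0.27, adjusted p = 0.00496). The annexins Anxa8, at 92.7, 131 and 155 CPM with vehicle and 1237, 1920 and 918 CPM with the ligands, and Anxa1, at 411, 387 and 404 CPM with vehicle and 1546, 1361 and 1054 CPM with the ligands, also rose. In all 3 genes the groups were apart, and L46 had the lowest treated level.

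Goblet cell genes fell nearly throughout. Of 18 tested 1 rose and 15 fell (median log2 change -2.22); 0 rose and 14 fell without L42, and 0 rose and 17 fell with total reads as scaling. Atoh1, the transcription factor that commits cells to the secretory lineage, stood at 23.8, 18.2 and 12.5 CPM with vehicle and 0.516, 0.402 and 0.648 CPM with the ligands (log2 change -3.62 ± 0.23, adjusted p = 0.00477). Muc2, the main gel-forming mucin, stood at 345, 143 and 182 CPM with vehicle and 32.8, 31.1 and 68.2 CPM with the ligands, and Reg4, a secreted lectin, at 208, 150 and 60.3 CPM with vehicle and 7.2, 12.5 and 8.94 CPM with the ligands. Fcgbp, a mucus protein, fell from 228, 175 and 144 to 72.5, 80.4 and 88.1 CPM. All 4 were lower in every treated library than in any vehicle library. Goblet genes together held 0.133 to 0.250% of reads with vehicle and 0.0394 to 0.0483% with the ligands.

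Absorptive genes moved both ways, in shares not far from those of all genes. Of 21 tested 8 rose (38.1%) and 8 fell (38.1%), against 30.4% and 31.7% of all genes. Without L42, 2 rose and 3 fell. Krt20, the keratin of surface colonocytes, stood at 102, 156 and 76.4 CPM with vehicle and 1330, 1923 and 330 CPM with the ligands (log2 change 3.14 ± 0.35, adjusted p = 0.00593). The chloride-bicarbonate exchanger Slc26a3 went the other way, at 70.7, 125 and 44.5 CPM with vehicle and 8.55, 19.2 and 4.63 CPM with the ligands (-2.85 ± 0.11, adjusted p = 0.00463), as did the water channel Aqp4, at 222, 396 and 329 CPM with vehicle and 19.1, 33.5 and 102 CPM with the ligands. The groups were apart in Krt20, Slc26a3 and Aqp4. Ceacam1, an adhesion molecule of the apical surface, rose by 1.20, a call that did not hold without 1 line: Ceacam1 (adjusted p 0.0905 without L42). Lypd8, a surface protein that keeps bacteria off the epithelium, was not called (adjusted p = 0.0694) and stood at 1786, 2399 and 1441 CPM with vehicle and 2674, 5908 and 1639 CPM with the ligands; it was called higher by DESeq2 (adjusted p = 0.00566) and without L46 (0.00360).

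Most keratin and squamous genes rose, with keratins of simple and of stratified epithelium among them. Of 13 keratin and squamous genes tested 11 rose and 1 fell (median log2 change 1.81); 7 rose and 0 fell without L42, and 11 rose and 0 fell without L43. Krt8, a keratin of simple epithelium (chr15:101996698-102004482, minus strand, protein-coding), stood at 3175, 2849 and 3626 CPM with vehicle and 12249, 12448 and 9547 CPM with the ligands, and its partner Krt19 at 2262, 1891 and 2748 CPM with vehicle and 8589, 8245 and 7233 CPM with the ligands. Krt14, a keratin of basal squamous cells, stood at 11, 15 and 29.3 CPM with vehicle and 253, 405 and 239 CPM with the ligands (log2 change 4.02 ± 0.35, adjusted p = 0.00524), and Krt6a, a wound-induced keratin, at 1.66, 0.810 and 0.670 CPM with vehicle and 45.1, 37.1 and 8.41 CPM with the ligands (3.67 ± 0.40, adjusted p = 0.00590). The groups were apart in all 4 genes. The 13 keratin and squamous genes together went from 0.706 to 0.952% of reads with vehicle to 2.14 to 2.46% with the ligands. The member that fell was Krt4, named after its value was seen, at 199, 122 and 261 CPM with vehicle and 28.4, 13 and 191 CPM with the ligands. The calls of Krt8 (adjusted p 0.108 without L42), Krt19 (adjusted p 0.0765 without L42) and Krt4 (adjusted p 0.0844 with no replicate block, 0.0859 without L42 and 0.0863 without L43) did not hold without the lines given.

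Matrix and integrin genes rose as well. Of 21 tested 19 rose and 1 fell (median log2 change 1.45); 16 rose and 0 fell without L42. Lama3 and Lamb3, laminin chains of the epithelial basement membrane, both rose: Lama3 stood at 98.4, 78.4 and 133 CPM with vehicle and 1587, 2352 and 961 CPM with the ligands (log2 change 3.91 ± 0.39, adjusted p = 0.00575) and Lamb3 at 236, 208 and 266 CPM with vehicle and 1269, 1462 and 928 CPM with the ligands. The groups were apart for both. Itgav, the integrin subunit that pairs with Itgb6, stood at 74.1, 64.6 and 82.3 CPM with vehicle and 488, 538 and 349 CPM with the ligands. Beside the matrix genes, the summed stromal markers were 4.43 to 5.84 CPM with vehicle and 4.83 to 9.48 CPM with the ligands: Pdgfra (log2 change 2.07) and Col1a1 (1.52) rose from levels under 1 CPM, and Pdgfrb (-1.92) fell. The other 9 stromal markers, Col3a1 and Dcn included, were not listed, and the part of stromal cells in the matrix result was not tested.

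Most junction genes rose, and the members that fell were claudins. Of 23 tested 18 rose and 4 fell (median log2 change 0.78); 9 rose and 3 fell without L42. Cldn4, a sealing claudin, stood at 550, 385 and 633 CPM with vehicle and 3579, 3240 and 2254 CPM with the ligands (log2 change 2.53 ± 0.26, adjusted p = 0.00590), and the desmosomal plakin Dsp at 578, 535 and 735 CPM with vehicle and 2065, 2839 and 1695 CPM with the ligands. Cldn15 stood at 227, 185 and 197 CPM with vehicle and 7.91, 4.98 and 22.8 CPM with the ligands and Cldn2 at 149, 215 and 96.0 CPM with vehicle and 9.18, 3.07 and 13.8 CPM with the ligands. The groups were apart in all 4 genes, and Cldn8 (-2.88) and Cldn12 (-0.30), the latter named after its value was seen, also fell. Cdh1, E-cadherin, whose loss marks epithelial-mesenchymal transition, went up, from 1214, 1165 and 1133 to 3225, 3595 and 2116 CPM (log2 change 1.31 ± 0.19, adjusted p = 0.00733). Calls that did not hold in these settings were Cdh1 (adjusted p 0.0696 without L42) and Cldn12 (adjusted p 0.215 without L42 and 0.143 without L43). Of 17 genes in a list of factors for and against this transition 7 were tested, of which 5 rose and 0 fell; 1 rose and 0 fell without L42, 2 rose and 0 fell without L43, and 3 rose and 2 fell with total reads as scaling. Of those that rose, Cdh1, the splicing factors Esrp2 (1.03) and Esrp1 (0.45) and the repressor Ovol2 (0.80) are known to keep the epithelial state, and S100a4 (0.58) is a mesenchymal marker. The calls of Esrp1 (adjusted p 0.157 with total reads as scaling, 0.218 without L42 and 0.123 without L43), Ovol2 (adjusted p 0.0740 with no replicate block, 0.0831 without L42 and 0.0662 without L43) and S100a4 (adjusted p 0.102 with total reads as scaling, 0.113 without L42, 0.118 without L43 and 0.0605 without L46) did not hold either.

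**Figure D3:**
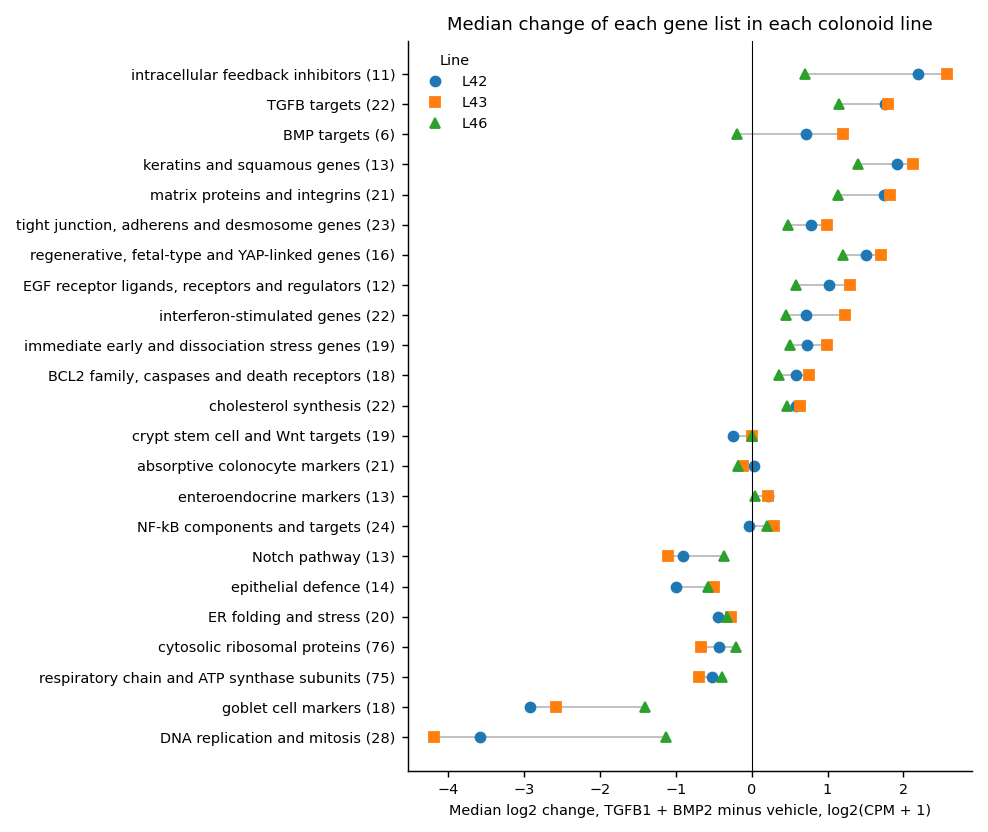
Median log2 change, treated minus vehicle on log2(CPM + 1), of each gene list in each colonoid line, with the number of tested members in brackets. Cell cycle genes lie at -3.58 in L42, -4.19 in L43 and -1.13 in L46, and L46 is nearest to 0 for most lists.

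Inflammatory genes moved in part. Of 9 chemokine genes tested 4 rose (44.4%) and 3 fell (33.3%), against 30.4% and 31.7% of all genes. Cxcl16, a membrane-bound chemokine, stood at 101, 63.8 and 106 CPM with vehicle and 322, 253 and 259 CPM with the ligands (log2 change 1.64 ± 0.15, adjusted p = 0.00539), and Ccl28, which draws IgA-producing cells to mucosa, at 47.1, 81.4 and 40.4 CPM with vehicle and 10.1, 10.2 and 14.5 CPM with the ligands (-2.14 ± 0.29, adjusted p = 0.00672). The groups were apart in both. Ccl20, the chemokine named in the series title, was not among the genes tested in this comparison. Of 24 NF-kB genes 9 rose (37.5%) and 5 fell (20.8%), to be read beside the same shares of all genes. Without L42 5 rose and 1 fell, without L43 6 rose and 2 fell, and without L46 10 rose and 8 fell. With total reads as scaling 5 rose and 7 fell, where 19.1% of all genes rose and 45.6% fell. Cd40, a costimulatory receptor, stood at 0.683, 0.486 and 0.619 CPM with vehicle and 17.6, 13 and 8.48 CPM with the ligands (log2 change 3.08 ± 0.22, adjusted p = 0.00477), with no overlap. Of 22 interferon-stimulated genes 17 rose and 1 fell; 6 rose and 0 fell without L42, 9 rose and 0 fell without L43, 17 rose and 2 fell without L46, and 10 rose and 1 fell with total reads as scaling. The median log2 change of the interferon list was 0.83. The list did not hold Ifitm3, an interferon-induced gene that was among the largest falls of the comparison (log2 change -4.34).

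Genes of ribosomes and of oxidative phosphorylation fell modestly. Of 76 ribosomal protein genes tested 0 rose and 50 fell (median log2 change -0.44), but 0 rose and 0 fell without L42, and 0 rose and 0 fell without L43. Of 75 oxidative phosphorylation genes 1 rose and 64 fell (median -0.53); 1 rose and 18 fell without L42, and 1 rose and 35 fell without L43. Ribosomal protein genes held 6.71 to 7.14% of reads with vehicle and 3.49 to 5.46% with the ligands. Near-identical ribosomal pseudogenes could take part of these reads, which was not tested.

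The lines responded mostly in the same direction, 9894 of the 11633 genes (85.1%) in all 3, but not by the same amount. The median absolute log2 change over all genes was 0.52 in L42, 0.58 in L43 and 0.32 in L46. Of the 7223 changed genes, L46 had the smallest change in 6279 (86.9%). Over the 11633 genes, Spearman's rho between the log2 changes was 0.96 for L42 and L43, 0.93 for L42 and L46 and 0.92 for L43 and L46, as a description across genes of 1 library pair per line. Of 1120 genes at least 2-fold higher in both L42 and L43, 1118 were higher in L46 too and 604 at least 2-fold, with medians of 1.63 and 1.05. Of 1465 genes at least 2-fold lower in both, 1454 were lower in L46 and 624 at least 2-fold, with medians of -1.73 and -0.91. Those genes were chosen by their size in L42 and L43, which enlarges the medians of those lines but not that of L46. Genes at least 2-fold higher in L43 and L46 had a median of 1.81 there and 2.00 in L42, and those lower -1.99 and -2.43. Genes at least 2-fold higher in L42 and L46 had a median of 1.70 there and 2.18 in L43, and those lower -1.89 and -2.63. With 1 library per line and treatment, a difference between lines has no replicate check.

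**Figure D4:**
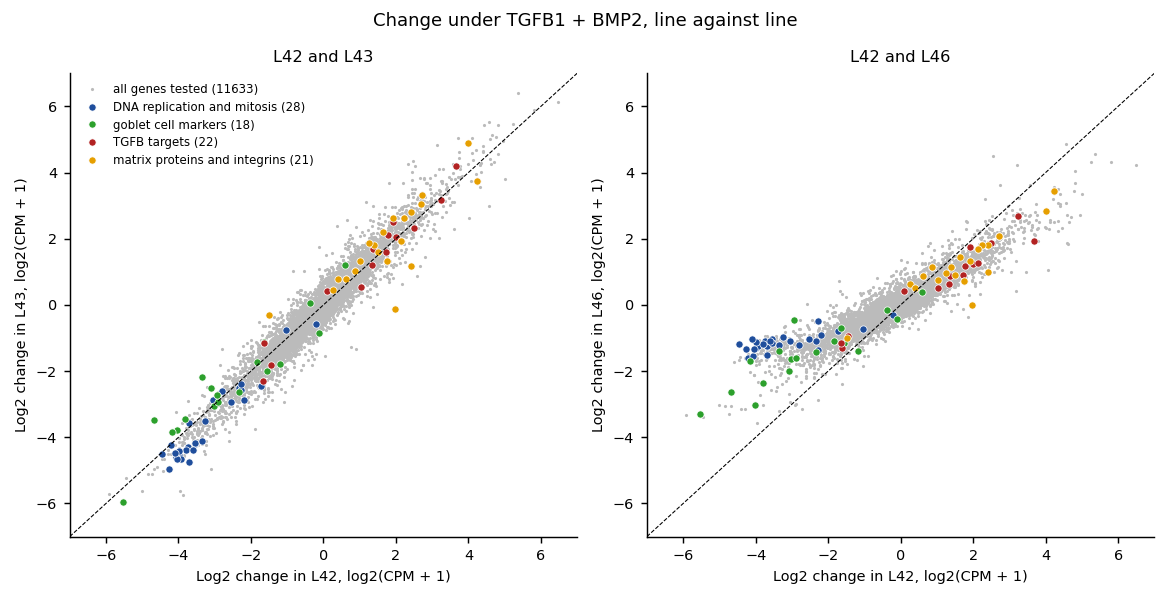
Log2 change, treated minus vehicle on log2(CPM + 1), of the 11633 genes in L42 on the x axis against L43 (left) and L46 (right) on the y axis, with 4 gene lists coloured and a dashed line of equal change. Cell cycle genes follow the dashed line for L43 and lie between it and 0 for L46.

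Under TNF, most genes that the ligands moved in these lines moved the same way. In the 6 TNF libraries 7065 of 11595 genes (60.9%) changed, 3447 (29.7%) up and 3618 (31.2%) down. With total reads as scaling 7551 changed (65.1%), of which 2212 rose and 5339 fell, and leaving out a line gave 3017 changed genes without L42, 3380 without L43 and 8955 without L46. Of the 2415 genes changed at least 2-fold without TNF and tested in both, 2402 were called under TNF, all 2402 in the same direction. Smad7 changed by 3.19 ± 0.34, adjusted p = 0.00858 under TNF, and Mki67 by -3.37 ± 0.69, adjusted p = 0.0164. The difference between the effects was tested with a common ligand effect for all lines, so the smaller response of L46 was left in the residual spread. A count of 0 in this test therefore does not show equal effects. The test called 0 of 11413 genes by limma and 0 by edgeR, with 315 (2.76%) and 334 (2.93%) at an unadjusted p under 0.05. DESeq2 called 32 (0.280%) and had 374 (3.28%) at an unadjusted p under 0.05. The largest of these 32 was the fall of Cyp26b1, a retinoic acid-degrading enzyme named here after its value was seen, from 17.9, 5.82 and 8.03 to 9.80, 3.60 and 4.56 CPM without TNF and from 18.1, 5.66 and 7.23 to 3.31, 1.24 and 1.19 CPM with it; by limma the difference was -1.17 (adjusted p = 0.494). Its call without TNF did not hold in 2 settings: Cyp26b1 (adjusted p 0.235 with no replicate block and 0.104 without L42). Ccl20, which attracts cells bearing Ccr6, was tested under TNF, where it stood at 21.9, 33.4 and 7.80 CPM with TNF alone and at 1.29, 1.48 and 1.56 CPM with TNF and the ligands (adjusted p = 0.00961 by limma).

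In the colonocytes the same ligands moved fewer genes than in the fit of all colonoid lines, and the cultures differed in what they express. The colonoid count without L42, 2584, was below the colonocyte count. Leaving out 1 colonocyte replicate gave 2578 to 4100 genes. Only the colonoid fit had a block, so these counts do not compare the size of the response. Of 11620 genes tested 3513 (30.2%) changed, 1848 (15.9%) up and 1665 (14.3%) down; with total reads as scaling 1228 rose (10.6%) and 2896 fell (24.9%). Of the 12 epithelial markers 4 were tested there, Krt8 at 0.771 to 4.65 CPM among them, while Epcam and Cdh1 were not, and Fn1 stood at 4183 to 4776 CPM and the collagen gene Col1a1 at 1959 to 3084 CPM. The feedback genes Smad7 and Pmepa1 rose there too: Smad7 went from 43, 36.2 and 41.6 to 172, 160 and 151 CPM in the colonocytes and Pmepa1 from 234, 225 and 259 to 973, 887 and 885 CPM. The rise of Smad7 was larger in colonoids by 1.43 ± 0.30, adjusted p = 0.00245, and that of Pmepa1 by 1.21 ± 0.24, adjusted p = 0.00157. Of the 11 feedback genes 7 had a higher and 1 a lower change in colonoids in that test. Cell cycle genes had a median log2 change of -0.03 in colonocytes, and all 28 differed from the colonoids in the test of the difference, in which 6542 of 10359 genes (63.2%) differed, 3190 with a higher and 3352 with a lower colonoid change. With total reads as scaling 6567 differed (63.4%), 2350 higher (22.7%) and 4217 lower (40.7%). Mki67 went from 453, 460 and 469 to 414, 433 and 378 CPM there (-0.18 ± 0.05, adjusted p = 0.0223). Of the 1894 genes changed at least 2-fold in colonoids and tested in both, 778 were called in colonocytes, 615 in the same and 163 in the opposite direction. Fn1, a strong riser in colonoids, did not pass the test in colonocytes (-0.12 ± 0.05, adjusted p = 0.0823), and the difference was 3.91 ± 0.16, adjusted p = 1.71e-06. The test of the difference used a residual spread shared by the colonoid lines and the colonocyte cultures. Its SE and p-values therefore do not measure the variation between colonoid lines alone. Culture, dose and time cannot be told apart in these differences.

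Knockout of Smad4 in colon epithelium lowered the BMP targets and raised some TGFB feedback genes. Smad4 stood at 132, 148 and 152 CPM in control and 47.8, 59.2 and 46.1 CPM in knockout mice, and 4611 of 11607 genes (39.7%) changed. That count was 2721 without control replicate 2 and 2708 without knockout replicate 2. The 6 BMP targets all fell in the knockout: Id1 went from 206, 238 and 224 to 46, 53.8 and 47.9 CPM and Id3 from 107, 133 and 117 to 3.14, 3.92 and 2.86 CPM. Smad7 fell too, from 34.0, 36.1 and 31.4 to 16.9, 20.2 and 18.4 CPM (-0.84 ± 0.12, adjusted p = 7.66e-04), and Smad6 from 20.7, 21.2 and 18.9 to 6.03, 5.09 and 7.42 CPM; of these Id1, Smad7 and Smad6 rose with the ligands in colonoids. Smad6 (adjusted p 0.0637 without L42 and 0.0584 without L43) was the one whose colonoid call did not hold without 1 line. In contrast Pmepa1 (1.32 ± 0.13, adjusted p = 1.96e-04) and Skil (1.10 ± 0.11, adjusted p = 1.69e-04) were higher in the knockout and also rose with the ligands. Over all genes that rose in colonoids, 26.7% were higher and 14.8% lower in the knockout, against 20.1% and 19.8% of all genes tested in both. Of genes that fell in colonoids, 14.6% were higher and 24.2% lower. Of the 885 genes changed at least 2-fold in colonoids and called in both, 529 had the same direction and 356 the opposite.

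**Figure D5:**
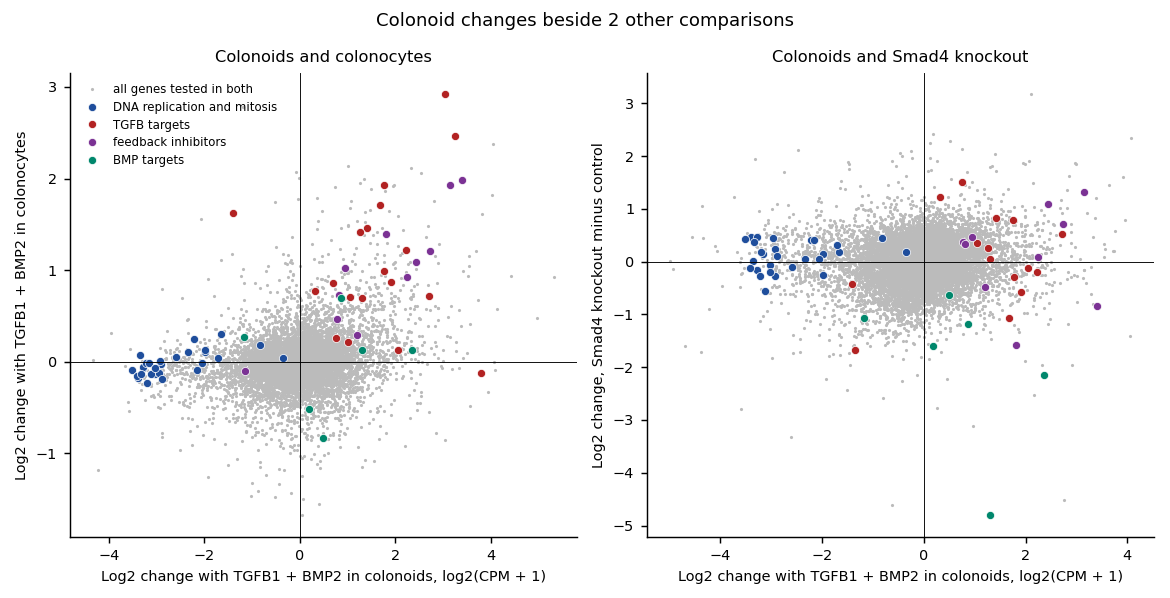
Log2 change with TGFB1 and BMP2 in colonoids on the x axis against the log2 change with the same ligands in colonocytes (left) and with Smad4 knockout in colon epithelium (right) on the y axis, on log2(CPM + 1). Smad7 and Pmepa1 lie high on both axes on the left, and Id1 and Smad7 lie low on the y axis on the right.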

How the data were processed

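mRNA of 30 samples was sequenced (TruSeq Stranded mRNA, per the labels). The deposited columns hold a signal in CPM that the authors scaled to effective library sizes, 1 table per comparison, so each table was tested on its own. The submitters' processing notes name TopHat2 2.1.0, HTSeq 0.5.4p5, edgeR 3.4.2, SAMtools 1.3.1, bcl2fastq 2.16 and CASAVA and the build mm10, per the labels, with no strand setting of the counting. The authors' fold changes and p-values were not used.

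Genes with a mean of at least 1 CPM were tested with limma 3.58.1 (eBayes with trend, two-sided) on log2(CPM + 1), with the colonoid line as a block, Benjamini-Hochberg adjustment and a threshold of 0.05. This scale understates the change of low genes. The lines come from the labels, and the deviations of same-line libraries from their group means correlated at 0.59, 0.43 and 0.31. The replicates are called biological per the labels; what separates the colonocyte cultures is not stated, so their p-values may measure technical spread. Differences between effects were tested on whole reads recovered from the low values, joined across tables and scaled by TMM; 100% of values came within 0.05 of a whole read, although an independent check found whole reads in only part of the columns. edgeR 4.0.16 and DESeq2 1.42.0 ran on these reads as alternatives, beside other scaling, pseudocount and filter settings and leaving out each line. The tests were also run on simulated data in which every line had the same ligand effect. In the colonoids the lines differed, so those runs do not show how the tests behave with such differences. R 4.3.3, Python 3.11.15, numpy 2.4.6, pandas 2.3.3 and matplotlib 3.10.9 were used. Gene positions are from GENCODE vM21 on GRCm38.

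Named genes were the 15 largest rises and falls (same direction in all lines, at least 5 CPM in the higher group), Smad4, Ccl20, the signalling lists, up to 4 changed members of each other list by size and 2 others by level, and the 5 largest differences each way; others are marked where named. Some genes that this rule names are not reported here. The members and gene lists were chosen with earlier results of these data known.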

Additional observations from a re-analysis of the deposited data

Results flagged for a closer look

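The effect of the ligands differed between colonoids and colonocytes for 6542 of 10359 genes, by a test of the difference itself in limma with Benjamini-Hochberg adjustment. The larger differences are given as the colonoid minus the colonocyte log2 change. Towards a higher change in colonoids they were Angptl2 at 4.55 ± 0.21, Acsbg1 at 4.42 ± 0.36, Ephb6 at 4.30 ± 0.23, Dhrs9 at 4.18 ± 0.35 and Prex2 at 4.14 ± 0.56. In the other direction they were Ifitm3 at -4.43 ± 0.44, Slc12a8 at -4.34 ± 0.31, Adamts15 at -4.03 ± 0.33, Vav3 at -3.76 ± 0.21 and Tiam1 at -3.71 ± 0.45. Adamts15, a protease of matrix proteoglycans, stood at 12.6, 15.5 and 13.4 CPM with vehicle and 3.22, 4.48 and 10.6 CPM with the ligands in colonoids and at 0.334, 0.251 and 0.359 CPM in control and 7.98, 6.77 and 9.46 CPM in treated colonocytes, so its change went in opposite directions. Its colonoid call did not hold without 1 line: Adamts15 (adjusted p 0.104 without L42 and 0.0973 without L43). The SE of these differences rest on a residual spread shared by the colonoid lines and the colonocyte cultures. Dose, time and kind of culture cannot be told apart in these differences.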

How the results depend on the processing

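In the colonoid comparison, the number of changed genes was 7223 with log2(CPM + 0.5), 7254 with no filter on low values, 7533 with total reads as scaling, 7100 with edgeR, 7119 with DESeq2 and 6596 with no replicate block. Leaving out 1 line gave 2584 to 8355 genes, and under TNF 3017 to 8955. Leaving out 1 replicate gave 2708 to 4915 genes for the knockout. For the difference with TNF, DESeq2 called 32 genes and limma 0. The line pairs the colonoid libraries by label, so the block is part of the fit; no replicate block gave 5680 genes for the difference between cultures. In the colonocytes, the replicate numbers are not stated to mark a shared culture, and the replicate block gave 4112 genes against 3513, and 6181 for the difference between cultures. With total reads as scaling the Id2 change was -0.07 and the Smad4 change -0.02; the Id2 change was -0.13 without L43 and 0.65 without L46. The cause was not tested. Genes with a mean under 1 CPM were left out of the main fit, and the pseudocount of 1 understates changes of genes near that level.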

Other observations

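More retinoid genes rose than fell. Of 14 tested 7 rose (50.0%) and 4 fell (28.6%), against 30.4% and 31.7% of all genes. Without L42, 5 rose and 1 fell. Rdh10, which makes retinaldehyde, stood at 104, 73.8 and 84.5 CPM with vehicle and 385, 399 and 282 CPM with the ligands (log2 change 2.01 ± 0.16, limma with Benjamini-Hochberg adjusted p = 0.00477). Dhrs9, of the retinol dehydrogenase family, stood at 9.0, 7.99 and 12.3 CPM with vehicle and 208, 249 and 110 CPM with the ligands. In both the treated values lay above every vehicle value. Of 18 apoptosis genes 11 rose and 3 fell; 6 rose and 0 fell without L42, and 8 rose and 1 fell without L43. Bmf, which promotes cell death, stood at 16.1, 11.8 and 16 CPM with vehicle and 235, 184 and 63.2 CPM with the ligands (log2 change 3.19 ± 0.42, adjusted p = 0.00668), and Bcl2l1, which opposes it, at 77.8, 76.6 and 98.2 CPM with vehicle and 193, 232 and 201 CPM with the ligands. Of 19 stress and immediate early genes 14 rose and none fell; 7 rose and 0 fell without L42, and 16 rose and 1 fell without L46. Fos stood at 56.2, 53.2 and 75.9 CPM with vehicle and 329, 352 and 238 CPM with the ligands and Klf6 at 228, 229 and 251 CPM with vehicle and 1280, 1410 and 783 CPM with the ligands, both apart from vehicle.

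Of 22 cholesterol synthesis genes 14 rose and 1 fell (median log2 change 0.55); 3 rose and 0 fell without L42, 11 rose and 0 fell without L43, 16 rose and 3 fell without L46, and 11 rose and 2 fell with total reads as scaling. Hsd17b7 stood at 67.4, 62.7 and 50.7 CPM with vehicle and 164, 180 and 107 CPM with the ligands, and Fdft1, squalene synthase, at 269, 284 and 265 CPM with vehicle and 606, 664 and 453 CPM with the ligands. Genes of protein folding in the endoplasmic reticulum went down in part: of 20 tested 1 rose and 10 fell; 0 rose and 3 fell without L42, 0 rose and 7 fell without L43, and 0 rose and 17 fell with total reads as scaling. Ern2, the stress sensor of mucus cells, stood at 40.2, 42.9 and 27.5 CPM with vehicle and 1.3, 2.18 and 6.00 CPM with the ligands (log2 change -3.32 ± 0.44, adjusted p = 0.00668). Of 13 enteroendocrine genes 4 rose (30.8%) and 1 fell (7.69%), against 30.4% and 31.7% of all genes. Without L42 1 rose and 1 fell, as without L43. Without L46 5 rose and 4 fell. With total reads as scaling 4 rose and 4 fell, where 19.1% of all genes rose and 45.6% fell. Neurog3, the factor that starts this lineage, fell from 5.88, 4.95 and 2.49 to 0.0982, 0.0192 and 0.463 CPM, while the prohormone-processing enzyme Cpe rose from 17.6, 15.5 and 7.94 to 51.1, 51.6 and 23.9 CPM. Of 13 Notch genes 5 rose and 7 fell; 3 rose and 3 fell without L42, and 5 rose and 4 fell without L43. The receptor Notch4 stood at 7.12, 11.9 and 7.89 CPM with vehicle and 40.4, 59.7 and 46.8 CPM with the ligands, with no overlap. Of 14 epithelial defence genes 1 rose and 8 fell; 0 rose and 5 fell without L42, 0 rose and 5 fell without L43, and 0 rose and 10 fell with total reads as scaling. Of 14 antigen presentation genes 6 rose (42.9%) and 4 fell (28.6%), against 30.4% and 31.7% of all genes. Without L42 1 rose and 0 fell, without L43 2 rose and 3 fell, and without L46 6 rose and 7 fell. With total reads as scaling 2 rose and 6 fell, where 19.1% of all genes rose and 45.6% fell. Of 12 protease and inhibitor genes 8 rose and 2 fell; 6 rose and 0 fell without L42, and 6 rose and 0 fell without L43. Tuft cell genes were nearly absent: of 12 in the list, Avil and Plcg2 were tested, and both rose; 1 rose and 0 fell without L42, and 1 rose and 0 fell without L43. Those not held were Avil (adjusted p 0.185 with no replicate block and 0.0507 without L43) and Plcg2 (adjusted p 0.105 without L42).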
